A study of Homo sapiens with 6 samples.

Results

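The AP-1 transcription factor subunits examined here were the 10 genes FOS, FOSB, FOSL1, FOSL2, JUN, JUNB, JUND, ATF3, BATF and JDP2, taken by symbol from a table of 28395 genes. Each of the 10 symbols was found, and 9 passed the filter on low values (a mean signal of at least 10), as 14215 genes of the whole table did. BATF did not pass. HCC827, a human cell line established from a lung adenocarcinoma, has an EGFR that carries an activating in-frame deletion, and erlotinib is a small molecule that inhibits the EGFR kinase. The control group was HCC827 cells in the vehicle DMSO, and the treated group was HCC827 cells in 1 μM erlotinib, both for 24 h and both with the same EGFR deletion. Poly(A)-selected RNA was sequenced in 3 libraries per group from this 1 cell line, and the labels do not say whether the libraries came from separate cultures. The study states in general that its experiments were repeated independently, without naming these libraries, so the spread between them may be technical.

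AP-1 is a dimer of basic leucine zipper (bZIP) proteins. JUN proteins pair with each other or with FOS proteins, while FOS proteins need a JUN partner, so the dimers a cell can form depend on which subunits it makes. FOS, FOSB and FOSL1 are known as genes switched on by growth factor signalling through ERK, whereas JUND is made more steadily. JDP2 is known mainly as a repressor in AP-1 dimers. AP-1 binds the TPA response element TGACTCA, and dimers that hold ATF or CREB family members favour the longer cAMP response element TGACGTCA.

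Values are given as signal, which is the reads of a gene divided by 1 size factor per library. The DMSO libraries held 20858083, 24641819 and 21172884 reads on genes. The erlotinib libraries held 21944007, 20760204 and 21678395 reads. The erlotinib libraries are numbered 1 to 3 in the order of the table, as names only. By GC content, DMSO library 2 differed from the other DMSO libraries, and the erlotinib libraries differed from all DMSO libraries. Leaving out DMSO library 2 therefore does not remove the difference between the groups. Among genes in the highest of 5 equal bins of transcript GC content (58.5% to 85.1%), the median gene of DMSO library 2 lay 0.31 log2 units below its own mean over the 6 libraries. The other DMSO libraries lay 0.07 below, and the erlotinib libraries 0.16 to 0.19 above. JUND (69.9% GC), JUNB (64.9%) and FOSL1 (58.7%) lie in this bin. Changes of the GC-rich subunits are therefore also given without DMSO library 2 and after the libraries were corrected for the GC content and length of transcripts, which could be done for 94.1% of the tested genes.

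The response elements are themselves present near the start of some subunit genes. RefSeq start windows on GRCh38.p14 (250 bases before to 50 after each start) were available for 9 of the 10 genes, and both strands were searched. TGACTCA was in 4.95% of 35116 windows, TGACGTCA in 1.85%, and the variant TGACATCA, known from the JUN promoter, in 2.61%. Of the 12 windows of AP-1 genes, 4 held 1 of these elements. They are shown to let a reader see how the elements of the subunit genes differ, on the gene's strand and with the match in capitals.
FOSL2 chr2:28392851-28392880 (+): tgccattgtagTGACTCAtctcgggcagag
JUND chr19:18281804-18281833 (-): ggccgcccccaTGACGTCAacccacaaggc
JUN chr1:58784096-58784125 (-): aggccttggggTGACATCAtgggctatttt
ATF3 chr1:212565273-212565302 (+): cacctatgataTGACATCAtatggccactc
The match begins 4 bases after the start in FOSL2, 200 bases before it in JUND and 67 bases before it in JUN. In ATF3 it begins 123 bases before the more upstream of 2 starts. A match describes letters in the window and was not tested as a site.

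Erlotinib moved the subunits in opposite directions. FOSL1 fell 17.7-fold and FOS 2.35-fold, while FOSL2, JUN, JUNB, JUND, ATF3, JDP2 and FOSB rose. With all 6 libraries, ATF3 rose most, 2.10-fold. In limma's test across all genes with a threshold of 0.05 on the adjusted p-value, 2 of the 9 tested subunits were lower and 7 higher. Of all tested genes, 35.4% were lower and 35.3% were higher by the same rule (70.7% in either direction), so a call alone sets few genes apart in this experiment. When libraries were scaled by their total counts, 3955 of all tested genes were lower and 6156 higher, in place of 5031 and 5012, and the median log2 fold change of all genes was 0.19 in place of 0.02. Under that scaling the subunits kept their directions, with -3.97 for FOSL1, -1.05 for FOS and 0.52 to 1.25 for the other 7. In each of the 9 subunits the DMSO and erlotinib libraries did not overlap, as was so for 73.6% of all tested genes (36.9% lower and 36.7% higher). With a fall of at least 1 log2 unit, FOSL1 and FOS belonged to 10.8% of the tested genes, and with a rise of at least 1 log2 unit ATF3 belonged to 17.0%. Less mRNA per cell and fewer cells that hold it cannot be told apart in bulk RNA.

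**Figure D1:**
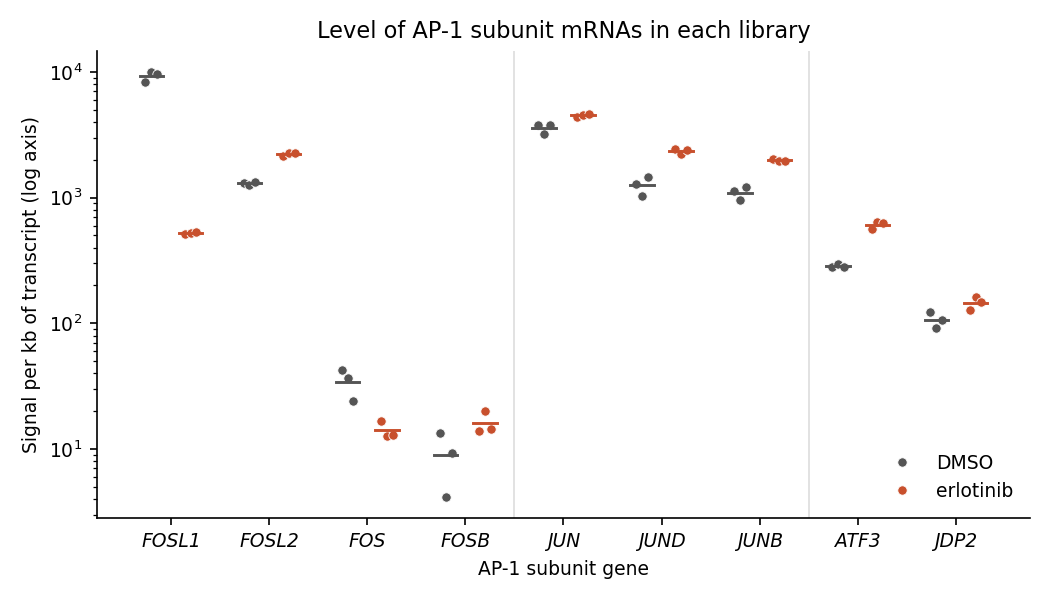
Signal per kb of transcript (log axis) of the 9 tested AP-1 subunits in each of the 6 libraries, with DMSO in grey and erlotinib in orange. Points are libraries and bars are group means. FOSL1 is the highest subunit in DMSO, at a mean of 9294, and lies below JUN, JUND, FOSL2, JUNB and ATF3 with erlotinib, at a mean of 522.

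Within the FOS proteins, FOSL1 (FRA1, chr11:65892049-65900388 on the minus strand, GRCh38) encodes a FOS-related protein without the long activation domain of FOS. Its signal was 14117, 17015 and 16322 in the DMSO libraries and 867, 891 and 909 in the erlotinib libraries. Every erlotinib library was far below every DMSO library, and the erlotinib libraries were close to each other. The log2 fold change was -4.15 (SE 0.07, adjusted p = 8.8e-20), and it ranked 12 from the largest fall among the 14215 tested genes. The study singled out FOSL1 in these same libraries, so its fall is not independent evidence.

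FOSL2 (FRA2, chr2:28392858-28417317, plus strand), the paralog of FOSL1, moved the other way. Its signal was 8780.3, 8469.6 and 8965 in DMSO and 14469, 15145 and 15089 with erlotinib. The libraries of each group were within a narrow band, and the bands were well apart. This was a log2 fold change of 0.77 (SE 0.06, adjusted p = 4.0e-10), and of 0.57 after the GC and length correction. FOSL2 overlaps FOSL2-AS1 on the opposite strand and another noncoding RNA on its own strand, neither of which is among the genes used here, so their part in its reads cannot be told apart.

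FOS (chr14:75278828-75282230, plus strand) is the classic immediate-early gene of the family. It was barely expressed here, with 27 to 83 reads in a library. Its signal was 89.6, 77.1 and 50.3 in DMSO and 35.1, 26.7 and 27.1 with erlotinib. The lowest DMSO library was still above the highest erlotinib library, although the DMSO libraries were spread. FOS had a log2 fold change of -1.23 (SE 0.30, adjusted p = 0.00105).

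FOSB (chr19:45467996-45475179, plus strand), also an immediate-early gene, had 17 to 76 reads in a library. Its signal was 51.0, 15.8 and 35.3 in DMSO and 52.6, 75.2 and 54.3 with erlotinib. The groups only just failed to overlap, with 51.0 in DMSO library 1 against 52.6 in erlotinib library 1. The log2 fold change of 0.94 (SE 0.36) had an adjusted p of 0.0248 in limma, which did not hold without DMSO library 2 (log2 fold change 0.49, adjusted p = 0.157), without erlotinib library 2 (0.78, adjusted p = 0.103), with no filter on low values (adjusted p = 0.056) or after the GC and length correction (0.72, adjusted p = 0.0664). FOSB also overlaps ERCC1 on the opposite strand, for which the mean signal was 324 ± 34.4 (SD, n = 3) without and 366 ± 26.8 with erlotinib. The strand counted is not given in the sources used here, so reads of FOSB and ERCC1 cannot be told apart where they overlap.

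The 3 JUN genes rose together, and each has 1 exon. JUN (chr1:58780791-58784047, minus strand), the founding member and the main partner of FOS proteins, had a signal of 12305, 10509 and 12230.3 in DMSO. With erlotinib it was 14349.7, 14844 and 14969. All erlotinib libraries were above all DMSO libraries, and DMSO library 2 was the lowest. The log2 fold change of 0.34 (SE 0.07, adjusted p = 1.7e-04) was the smallest among the 9 subunits.

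JUNB (chr19:12791486-12793315, plus strand) is often described as a weaker activator that can restrain JUN. Its DMSO libraries gave a signal of 2054, 1756 and 2212, and its erlotinib libraries 3715, 3596 and 3582. The erlotinib libraries lay close together and well above DMSO. Its log2 fold change was 0.86 (SE 0.08, adjusted p = 4.8e-09). JUNB overlaps HOOK2 on the opposite strand, which has a lower mean signal of 666 over the 6 libraries and a log2 fold change of 0.29 (adjusted p = 0.0231).

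JUND (chr19:18279694-18281622, minus strand) is the JUN gene linked to resting cells. Its DMSO libraries gave a signal of 2475, 1981 and 2799.9, and its erlotinib libraries 4723, 4312 and 4659.8. The groups were far apart relative to the spread within them. Its log2 fold change was 0.93 (SE 0.09, adjusted p = 1.7e-08).

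The size of the JUN gene changes depended on the correction for base composition. After it, the log2 fold change was 0.18 for JUN, 0.52 for JUNB and 0.42 for JUND, each still past the threshold (adjusted p = 5.7e-04, 8.9e-09 and 6.4e-07). Without DMSO library 2 it was 0.26, 0.77 and 0.79, and -4.09 for FOSL1. The median log2 fold change of all genes in the highest GC bin was 0.35, against 0.02 over all tested genes. FOSL1, which is also GC-rich, had -4.29 after the correction, and ATF3, with the lowest GC content of the 10 (50.4%), had 1.14.

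**Figure D2:**
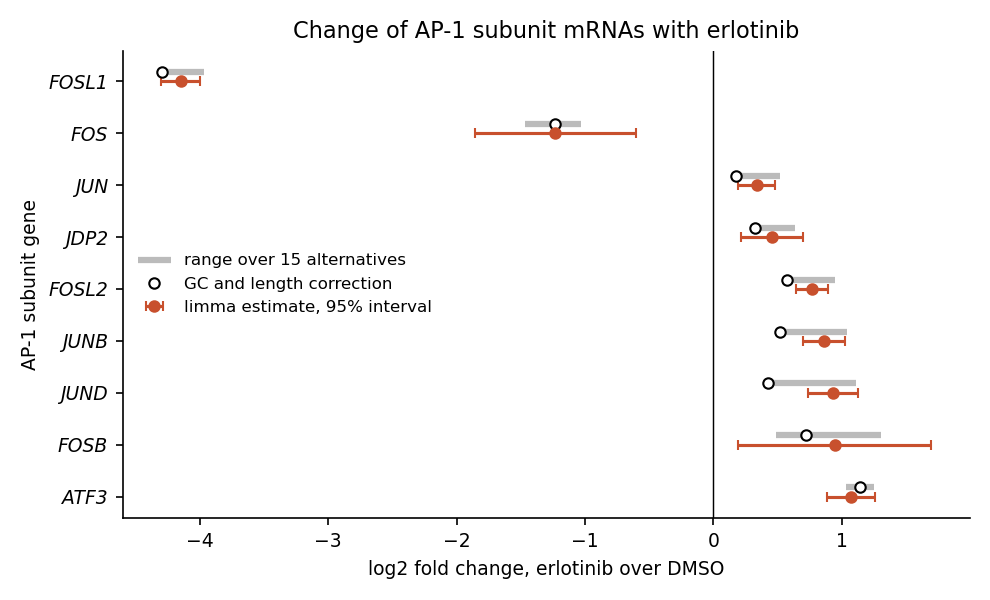
Log2 fold change (erlotinib over DMSO) of the 9 tested AP-1 subunits. Filled points and bars are the limma estimate with its 95% confidence interval, grey bars span 15 alternative analyses, and open circles are the GC and length correction. FOSL1 at -4.15 and FOS at -1.23 lie left of 0 throughout, and the other 7 lie right of 0 throughout.

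ATF3 (chr1:212608761-212620775, plus strand), a stress-induced gene, had the largest rise with all 6 libraries. Without DMSO library 1 the log2 fold change of FOSB was larger, at 1.30 against 1.06 for ATF3. Its signal was 549, 580.4 and 545 in DMSO and 1083, 1233 and 1210.3 with erlotinib. The DMSO libraries were nearly equal, and all erlotinib libraries were clearly above them. The log2 fold change was 1.07 (SE 0.09, adjusted p = 1.2e-09).

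JDP2 (chr14:75428022-75474107, plus strand), whose protein dimerizes with JUN, rose less. Its signal was 664, 491 and 569 in DMSO and 684, 878 and 800.3 with erlotinib. The highest DMSO library was just below the lowest erlotinib library. JDP2 had a log2 fold change of 0.46 (SE 0.12, adjusted p = 0.00158).

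BATF (chr14:75522469-75546992, plus strand), a subunit known from lymphocytes, had 0 reads in each DMSO library and 2, 0 and 2 reads in the erlotinib libraries. A count of 0 allows up to 3 reads, a signal of 2.79 to 3.40 in the DMSO libraries, so no fold change is given. FOS, JDP2 and BATF lie in this order on chromosome 14, where FOS was lower and JDP2 higher with erlotinib.

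To compare levels between genes, signal was divided by the length of 1 transcript per gene. Reads across exon junctions can be lost in all subunits but the 1-exon JUN genes. Levels of JUN genes may therefore be overstated against those of the other subunits. In DMSO, the mean signal per kb was 9294 ± 889 for FOSL1 (SD, n = 3), 3587 ± 312 for JUN, 1302 ± 37.3 for FOSL2, 1254 ± 214 for JUND and 1097 ± 127 for JUNB. FOSL1 and JUN were each clear of the next subunit, whereas the libraries of JUND overlapped those of FOSL2 and of JUNB, and FOSL2 lay just above JUNB in all libraries. ATF3 (288 ± 10.0), JDP2 (107 ± 16.0), FOS (34.4 ± 9.54) and FOSB (9.02 ± 4.68) followed, each below the lowest library of the one before.

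With erlotinib the order changed. JUN was first at 4520 ± 100.5 signal per kb, JUND (2367 ± 115) and FOSL2 (2220 ± 55.9) overlapped, and JUNB followed at 1984 ± 40.0. ATF3 at 606 ± 41.7 was now above FOSL1 at 522 ± 12.2. JDP2 came next at 146 ± 18.2, and FOSB (16.1 ± 3.34) and FOS (14.1 ± 2.23) overlapped at the bottom. FOSL1 thus moved from rank 1 to rank 6 and JUN from rank 2 to rank 1. Per coding length FOSL1 moved to rank 7, below JDP2, and JUN stayed at rank 2, as it did with no division by length.

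The sum over the 10 subunits went from 16971 ± 758 to 12396 ± 145 signal per kb of transcript, a ratio of 0.730. Summed in the same way, the 4 FOS genes were at 0.261 of their DMSO level, the 3 JUN genes at 1.49 and the ATF3, BATF and JDP2 group at 1.91 of theirs. Per transcript length, the libraries of the 2 conditions did not overlap for any of these sums (exact two-sided permutation test, p = 0.1, the smallest that 3 against 3 libraries allow). The ratio for the 10 subunits depended on the length used. It was 0.918 per coding length, and 0.973 with no division, where the libraries overlapped (41903 ± 1584 and 40761 ± 692, exact permutation p = 0.5). The ratio for the FOS genes was 0.576 per coding length and 0.644 with no division, and that for the JUN genes was 1.42 in both cases, each without overlap. After the GC and length correction, with lengths of transcripts, the ratio was 0.628 for the 10 subunits, 0.232 for the FOS genes and 1.24 for the JUN genes, also without overlap.

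The composition of the subunit mRNA pool was then compared as the share of each subunit in the summed signal per kb of its library. FOSL1 made up 51.0%, 59.1% and 54.0% of the pool in the DMSO libraries and 4.15%, 4.23% and 4.25% in the erlotinib libraries. More than any other subunit, it changed from the main component to a minor one. JUN went from 21.2% ± 2.08 (SD, n = 3) to 36.5% ± 0.48, and JUND from 7.38% ± 1.14 to 19.1% ± 0.95. FOSL2 went from 7.68% ± 0.32 to 17.9% ± 0.33, and JUNB from 6.46% ± 0.68 to 16.0% ± 0.49. ATF3 went from 1.70% ± 0.10 to 4.89% ± 0.30 and JDP2 from 0.63% ± 0.11 to 1.18% ± 0.14. FOS and FOSB were minor in both groups, at most 0.262% of the pool in any library.

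By group, the FOS genes held 62.7% ± 3.80 of the pool in DMSO and 22.4% ± 0.38 with erlotinib. The JUN genes held 35.0% ± 3.74 and 71.6% ± 0.81, and the ATF3, BATF and JDP2 group 2.33% ± 0.16 and 6.08% ± 0.44. Of 20 shares compared, 18 did not overlap between the conditions, each with an exact two-sided permutation p of 0.1 (0.111 after Benjamini-Hochberg adjustment). The shares of FOS (exact permutation p = 0.2) and BATF (exact permutation p = 0.4) in the pool overlapped. Shares of 1 pool add up to 100%, so a large fall of FOSL1 raises the others even where their own signal is constant, and the shares are of mRNA, not of protein or of dimers. Reads lost at exon junctions, which the 1-exon JUN genes do not have, can raise the JUN share in DMSO and with erlotinib alike.

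**Figure D3:**
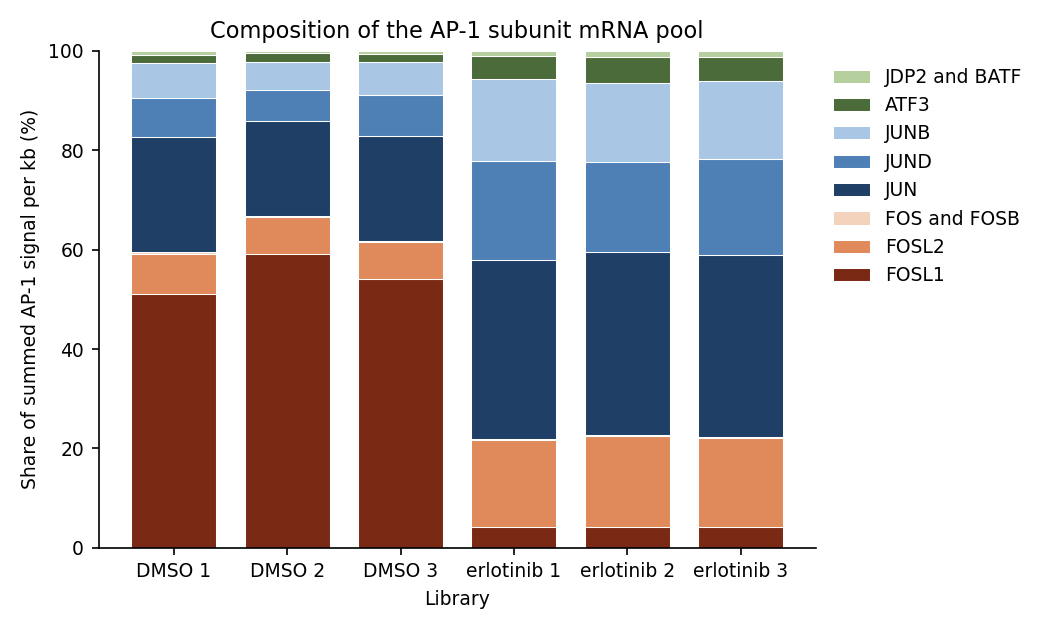
Share of each AP-1 subunit (%) in the summed signal per kb of the 10 genes, 1 bar per library. Red and orange are FOS genes, blue JUN genes and green ATF3, JDP2 and BATF. FOSL1 fills 51.0% to 59.1% of the DMSO bars and 4.15% to 4.25% of the erlotinib bars, and JUN genes fill 70.8% to 72.4% of the erlotinib bars.

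The exchange was sharpest within the FOS genes. FOSL1 was 87.3% ± 1.31 of the FOS group in DMSO and 18.8% ± 0.21 with erlotinib, while FOSL2 was 12.3% ± 1.19 and 80.1% ± 0.14. The log2 ratio of FOSL1 to FOSL2 signal was 0.68, 1.01 and 0.86 in the DMSO libraries and -4.06, -4.09 and -4.05 in the erlotinib libraries. FOSL1 was thus the higher of the pair in each DMSO library and the lower in each erlotinib library, also before division by length.

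Within the JUN genes the shift was smaller. JUN went from 60.5% ± 1.76 to 51.0% ± 1.25 of the group, JUNB went from 18.5% ± 0.35 to 22.4% ± 0.52, and JUND from 21.0% ± 1.48 to 26.7% ± 1.04. After the GC and length correction JUN went from 58.4% to 53.5%, JUNB from 18.9% to 21.9% and JUND from 22.7% to 24.6%. The log2 ratio of JUNB to JUN signal was higher with erlotinib by 0.52 and that of JUND to JUN by 0.59, both without overlap. The log2 ratio of JUND to JUNB was 0.27, 0.17 and 0.34 in DMSO and 0.35, 0.26 and 0.38 with erlotinib. These libraries overlapped, and the difference of 0.07 was within the spread (exact permutation p = 0.4). After the GC and length correction, the differences were 0.34 for JUNB over JUN and 0.24 for JUND over JUN, still without overlap, and that for JUND over JUNB turned round to -0.10, this time without overlap as well (exact permutation p = 0.1). The log2 ratio of the FOS group to the JUN group per length went from 0.84 ± 0.24 to -1.68 ± 0.04. Of 7 ratios, 6 did not overlap between the conditions (exact permutation p = 0.1 each, 0.117 adjusted).

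The choice of length changed the size of the shares. The direction was kept in 19 of the 20 and turned round for FOS within the FOS group, which changed by 0.182 percentage points per transcript length, by -0.0662 per coding length and by -0.109 with no division, with overlap of the conditions in the latter cases. Per kb of coding sequence, FOSL1 went from 41.7% to 2.55% and FOSL2 from 19.1% to 35.5%, so that FOSL2 and not JUN (34.6%) had the largest mean share with erlotinib. With no division by length FOSL1 went from 37.8% to 2.18%, and FOSL2 (36.6%) and JUN (36.1%) were close with erlotinib. The FOS group share changed by -22.7 percentage points per coding length, by -19.9 with no division and by -40.3 per transcript length.

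Among the tested genes, those whose pattern over the 6 libraries was most like that of FOSL1 were CDC6, a DNA replication licensing factor (root mean square difference of centred log2 values 0.111), RRM2, a subunit of ribonucleotide reductase (0.114), and DUSP6, an ERK phosphatase (0.133). For ATF3 they were IQSEC2 (0.0359), SLFN5 (0.0368) and FNBP1L (0.0446). This likeness rests on 6 libraries in 2 groups, and it describes size and direction of the change more than anything else.

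Other bZIP genes that can pair with AP-1 subunits or compete for their elements were mixed. Of 19, 18 were tested, with 3 lower, 9 higher and 6 past neither side (median log2 fold change 0.24, against 0.02 for all tested genes). Of all tested genes 35.4% were lower and 35.3% higher. Under total-count scaling 3 of the list were lower and 12 higher, but all tested genes shifted the same way, with 3955 lower and 6156 higher. MAF and NFE2 rose from low levels. The MAF signal went from 28.3 ± 17.0 to 254 ± 14.7 (SD, n = 3), a log2 fold change of 3.33 (adjusted p = 1.9e-08). NFE2 had 15.9 ± 4.71 and 157 ± 24.3 (3.25, adjusted p = 2.2e-09). MAFF, a small MAF protein without an activation domain, fell (log2 fold change -1.12, adjusted p = 4.1e-09). NFE2L1, the most abundant of the list, had a log2 fold change of 0.37 (adjusted p = 3.2e-05). MAFA was under the filter.

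Kinases and transcription factors upstream of AP-1 were also mixed. Of 20 tested, 9 were lower, 5 higher and 6 neither (median log2 fold change -0.15), against 35.4% lower and 35.3% higher among all tested genes. Under total-count scaling 7 were lower and 7 higher, against 3955 lower and 6156 higher of all tested genes. MAPK3 (ERK1) rose (1.12, adjusted p = 2.2e-08), from a signal of 484 ± 85.0 to 1042 ± 54.7. MAPK10 (JNK3) rose from a low level (1.47, adjusted p = 9.6e-05). ELK3, an ETS factor that acts with SRF and the most abundant of the list, fell (-0.85, adjusted p = 1.1e-09). These are mRNA levels and hold no measure of kinase activity. EGFR itself fell from a signal of 79645 ± 2441 to 45538 ± 3759 (-0.81, adjusted p = 2.4e-09).

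Of 10 genes for the turnover of AP-1 mRNAs and proteins, 7 were lower, 2 higher and 1 neither (median log2 fold change -0.35). The 2 higher genes were ZFP36 (1.79, adjusted p = 2.0e-12) and ZFP36L1 (0.56, adjusted p = 5.7e-08), which encode proteins that bind AU-rich elements and promote mRNA decay, and ZFP36L1 was the most abundant of the list. Other genes of AU-rich element binding proteins that promote decay were among the lower ones, with -0.96 for HNRNPD (adjusted p = 1.4e-09), -0.65 for KHSRP (adjusted p = 4.6e-08) and -0.26 for ZFP36L2 (adjusted p = 0.00258). The fall was not particular to these, since ELAVL1 of the same list was also lower (-0.84, adjusted p = 2.5e-10). Against the counts of this list, 35.4% of all tested genes were lower and 35.3% higher. Under total-count scaling 5 of the list were lower and 2 higher, and of all tested genes 3955 were lower and 6156 higher.

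Of 25 genes with AP-1 sites known from textbooks, 20 were tested, with 8 lower, 6 higher and 6 neither (median log2 fold change -0.17), which is close to the 35.4% lower and 35.3% higher among all tested genes. CCND1, which encodes cyclin D1, fell from a signal of 24391 ± 794 to 2599.9 ± 173 (-3.23, adjusted p = 4.6e-19), and the study singled it out in these libraries. SPRR1B (-1.70, adjusted p = 6.1e-05), GJA1 (-1.47, adjusted p = 7.9e-09) and VEGFA (-1.15, adjusted p = 2.9e-12) also fell. MMP13, a collagenase (3.50, adjusted p = 4.2e-09), SPP1, which encodes osteopontin (3.08, adjusted p = 2.0e-08), and CXCL8, which encodes interleukin 8 (2.20, adjusted p = 1.3e-11), rose. PLAU, the urokinase gene and the most abundant of the list, had a log2 fold change of -0.14 (adjusted p = 0.083). MMP1, MMP3, MMP10, CCL2 and IVL were under the filter.

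AP-1 is known to bind beside TEAD factors, the DNA partners of YAP and TAZ. For the 6 genes of YAP, TAZ and TEADs the median log2 fold change was -0.21. Of these genes 4 were lower and 2 higher, against 35.4% lower and 35.3% higher among all tested genes. YAP1, the most abundant, had -0.18 (adjusted p = 0.0202), and TEAD2 rose (1.92, adjusted p = 8.0e-11). When libraries were scaled by total counts, 2 in place of 4 were lower, as were 3955 in place of 5031 of all tested genes.

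**Figure D4:**
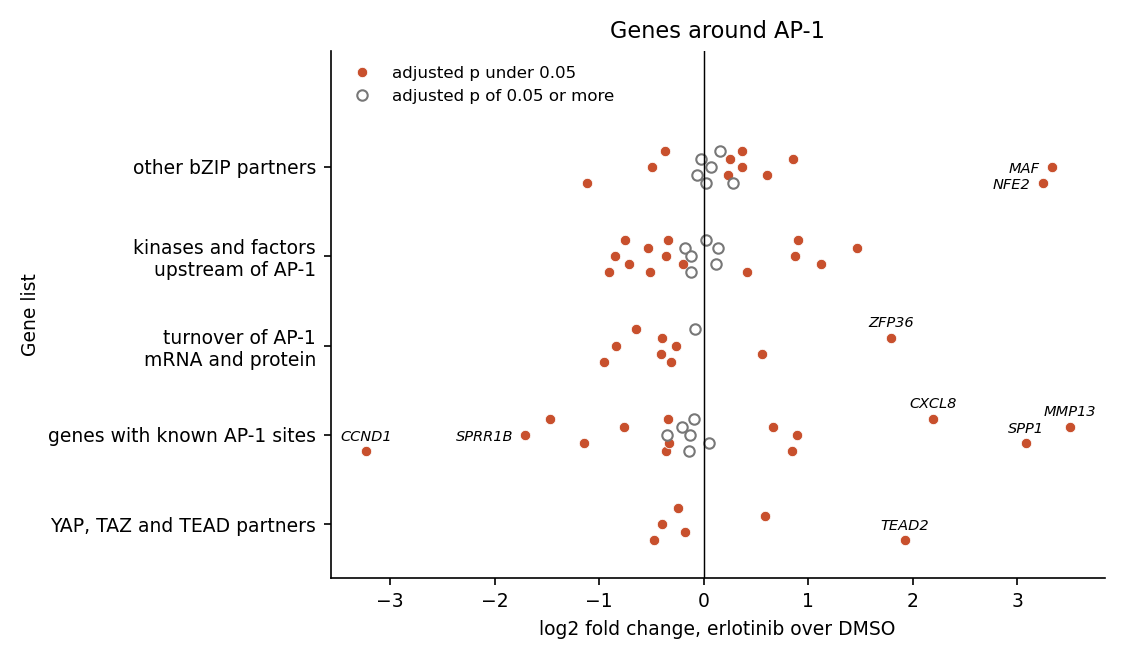
Log2 fold change (erlotinib over DMSO) of tested genes in 5 lists around AP-1, 1 point per gene reported, filled where the adjusted p is under 0.05. Each list holds genes on both sides of 0, with medians from -0.35 (turnover) to 0.24 (other bZIP partners), and the genes farthest from 0 are named.

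Because several AP-1 genes respond to handling, heat shock genes were also examined. Of 6, 4 were tested, and 3 were lower, against 35.4% lower and 35.3% higher among all tested genes. Of the heat shock genes 0 were higher in limma, DESeq2 and edgeR, and 0 at an unadjusted p under 0.05. HSP90AA1, the most abundant, fell (-2.13, adjusted p = 1.7e-16), as did HSPH1 (-1.89, adjusted p = 3.4e-15). HSPA1A and HSPA1B had at most 1 read in a library. Only uniquely mapped reads were counted, so reads that match more than 1 gene are missing. These counts therefore do not show that the 2 genes were silent. The part of handling in the AP-1 values was not tested.

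Markers were examined to check the label of the cells. All 6 epithelial markers were well expressed. In limma 4 were lower, 0 higher and 2 neither, against 35.4% lower and 35.3% higher among all tested genes. Counted at an unadjusted p under 0.05, as by DESeq2 and by edgeR, 1 was higher. KRT7, the most abundant, had a log2 fold change of -0.63 (adjusted p = 1.3e-07), KRT18 of -1.25 (adjusted p = 1.6e-12) and EPCAM of -0.05 (adjusted p = 0.429). Summed epithelial signal was 254717 to 286814 in DMSO and 185948 to 191721 with erlotinib. Of 7 markers of leukocytes, fibroblasts and endothelial cells, 4 were tested and 3 were higher, against 35.3% higher among all tested genes. With at least 10 reads required in every library, or without erlotinib library 2, the count of higher markers was 2. CD68, a lysosomal gene and the most abundant, had a log2 fold change of 0.23 (adjusted p = 0.00762) and COL1A1 of 1.47 (adjusted p = 6.8e-07). The other, VWF, had 3, 1 and 7 reads in the DMSO libraries and 38, 26 and 23 with erlotinib. It passed the filter on low values only through the erlotinib libraries, so no fold change is given for it. PECAM1, the other endothelial marker, had -0.55 (adjusted p = 0.348). The summed signal of the 7 markers was 2864 to 3263 in DMSO and 3509 to 3779 with erlotinib. Most of it was CD68, at 2770 to 3136 in DMSO and 3207 to 3526 with erlotinib. The defining genes PTPRC, CD3E and COL3A1 had at most 6 reads in any library.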

How the data were processed

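Per the labels, HCC827 cells were grown to subconfluence before treatment and libraries were made from oligo(dT)-enriched RNA. The authors aligned the read pairs with Bowtie2 2.3.4 on GRCh38, without splitting reads at introns, and counted uniquely mapped reads with featureCounts 1.6.3, so reads across exon junctions can be lost in all subunits but the 1-exon JUN genes. The deposited signal values are described as raw counts, but each is a whole number of reads divided by a size factor (whole reads recovered for 100% of values, tolerance 0.01 reads). Recovered depth was 20760204 to 24641819 reads per library, and floors of 3 reads cover counting error only.

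The test was limma 3.58.1 on log2(signal + 1) with a variance trend, over genes whose mean signal reached 10, with Benjamini-Hochberg adjustment and a threshold of 0.05. Fold changes are on this scale, which can understate changes of low genes. Lengths, positions and GC content came from GENCODE canonical transcripts on GRCh38. Alternatives were edgeR 4.0.16 with TMM and DESeq2 1.42.0 on recovered reads, scaling to the total count, TMM factors in limma, pseudocounts of 0.1 and 10, other filters, a threshold of 0.01, other lengths, and each library left out. The GC and length correction (BATF stayed uncorrected), and other lengths and left-out libraries for sums, were added after seeing the data. The limma fit was tested on simulated data, in which a far smaller part of the genes changed than was called here.

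The subunits and lists were chosen with earlier results of these data known. Genes named were the 10 subunits, EGFR, list members past the threshold by at least 1 log2 unit, the most abundant of each list, and the 3 genes most like the subunits with the largest fall and rise. ERCC1, HOOK2, EPCAM, PECAM1, HNRNPD, KHSRP, ZFP36L2, ELAVL1 and genes under the filter were named beside them after their values were seen. An item that the rule would name is not reported here and was left out of the plots, but not of the counts and medians of lists. R 4.3.3, Python 3.11.15 and matplotlib 3.10.9 were used.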

Additional observations from a re-analysis of the deposited data

How the results depend on the processing

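FOSL1, FOS, FOSL2, JUN, JUNB, JUND, ATF3 and JDP2 kept direction and call under all 16 settings run for them, and FOSB kept its direction but lost its call under 5, the values of which stand in the report except for a threshold of 0.01 (adjusted p = 0.0248). In all, 139 of 144 values of single subunits kept direction and call, and 0 reversed. The subunits called lower stayed at 2 and those called higher at 6 to 7. No paired analysis was possible because nothing states that the libraries were paired and the erlotinib columns share no number with those of DMSO, although the sample titles number both groups alike.

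Among the lists, epithelial markers called higher numbered 1 with edgeR, DESeq2, total-count scaling and a pseudocount of 0.1, and 2 after the GC and length correction, in place of 0, and 0 to 1 with each library left out. YAP, TAZ and TEAD genes called lower numbered 2 with total-count scaling. The change in share was -22.7 (coding length) or -19.9 (no division by length) percentage points for the FOS group in place of -40.3, 18.7 or 17.8 for the JUN group in place of 36.6, and 4.08 or 2.11 for the ATF3, BATF and JDP2 group in place of 3.75. The log2 ratio of the FOS to the JUN group changed by -1.30 or -1.15 in place of -2.52. The ratio of summed signal was 0.918 or 0.973 for the 10 subunits in place of 0.730, 0.576 or 0.644 for the FOS group in place of 0.261, and 1.72 or 1.73 for the ATF3, BATF and JDP2 group in place of 1.91. With each library left out these ratios ranged from 0.715 to 0.748, 0.249 to 0.269 and 1.85 to 1.99. FOS within the FOS group changed by -0.0662 or -0.109 percentage points in place of 0.182. After the GC and length correction, the log2 ratio changed by 0.34 for JUNB over JUN, 0.24 for JUND over JUN and -0.10 for JUND over JUNB, in place of 0.52, 0.59 and 0.07, the ratio of summed signal was 0.628 for the 10 subunits, 0.232 for the FOS group and 1.24 for the JUN group in place of 0.730, 0.261 and 1.49, and the share of the ATF3, BATF and JDP2 group changed by 4.52 percentage points. With each library left out the JUN group ratio was 1.41 to 1.56. With each library left out the changes of the group shares and of the ratio of the FOS to the JUN group ranged from -41.9 to -38.2, 34.5 to 38.1, 3.56 to 3.99 and -2.62 to -2.39. The shifts between lengths come from the length used, since FOSL2 and FOSL1 have transcripts of 6713 and 1702 bases and coding sequences of 978 and 813. Depth limits FOS, FOSB and BATF, which had at most 83, 76 and 2 reads in a library.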
